A study of Mus musculus with 12 samples.

Results

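Chemokines are small secreted proteins that guide leukocytes along concentration gradients, and each acts through one or more G protein-coupled receptors on the migrating cell. CC and CXC chemokines of the inflammatory kind are induced through NF-kB in macrophages, fibroblasts and adipocytes, whereas lymphoid chemokines are made by stromal cells of lymph nodes and position B and T lymphocytes there. In obese adipose tissue the family is best known for Ccl2 and its receptor Ccr2, which bring monocytes into the fat depot.

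The members described here are the 53 protein-coding mouse genes of the deposited count table whose symbols begin with Ccl, Cxcl, Ccr or Cxcr followed by a number, together with Cx3cl1 and Xcl1. They comprise 37 ligands and 16 receptors among 52550 gene IDs, and each had at least 1 count in at least 1 library. The choice used names and no measured value.

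The 12 libraries came from 4 groups of 3: brown adipose tissue (BAT) of Mcu fl/fl AKO mice, BAT of Mcu fl/fl mice, inguinal white adipose tissue (WAT) of Mcu fl/fl AKO mice, and WAT of Mcu fl/fl mice. Both genotypes carried floxed Mcu, which encodes the pore of the calcium uniporter in the inner mitochondrial membrane, and by the series' design text both were on a high-fat diet, with Mcu knocked out in adipose tissue of the AKO animals only. Mcu fl/fl mice are called controls below. The question put by the design text is how expression profiles of the genotypes differ in each fat depot. The sources used here do not give the Cre driver, the floxed exon, the strain, age or sex of these animals, or whether lymph nodes were taken out at dissection. Libraries are numbered as replicates in the labels, which do not say that the numbers stand for separate animals, and p-values therefore measure only how these libraries spread.

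Total counts ran from 15692588 to 18967159 per library. Mcu, the targeted gene, stood at 9.46, 14.6 and 8.28 CPM (counts scaled to library size with TMM factors over all 12 libraries) in BAT AKO libraries and at 26.6, 28.8 and 24.0 CPM in BAT controls. In WAT it stood at 10.1, 12.5 and 10.9 CPM in AKO libraries and at 18.0, 18.7 and 18.8 CPM in controls, so the genotypes did not overlap in either tissue. The log2 fold changes of −1.27 in BAT and −0.75 in WAT had adjusted p of 0.202 and 0.0799 by edgeR. Summed over 8 brown adipocyte markers, BAT libraries held 6910 to 8740 CPM and WAT libraries 35.1 to 72.4 CPM, as the tissue labels state. Some libraries stood apart. Skeletal muscle markers took 1.27% of counts in BAT AKO 2, 1.87% in WAT AKO 2 and 1.08% in WAT control 1, and at most 0.267% elsewhere. The 10 B lymphocyte markers summed to 722, 534 and 1260 CPM in WAT AKO libraries, to 408 CPM in WAT control 2, and to only 3.41 and 3.33 CPM in WAT controls 1 and 3.

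The members took a small part of each library, 0.0343 to 0.0442% of all counts in BAT and 0.0699 to 0.141% in WAT. Per unit length, in the FPKM values the authors deposited, Cxcl12 was the most abundant member of BAT with a mean of 23.2 over its 6 libraries. Cxcl12 is the stromal chemokine that retains Cxcr4-bearing cells. Cxcl14, a homeostatic CXC chemokine of epithelium and fat, followed with 21.5 FPKM, then the eosinophil attractant Ccl11 with 10.4, the macrophage product Ccl6 with 8.11 and the interferon-induced Cxcl9 with 7.12. In WAT the leading member was Ccl21a, the lymph node chemokine read by Ccr7, with a mean of 129 FPKM. It averaged 216 ± 78.6 FPKM in WAT AKO and 42.8 ± 70.5 FPKM in WAT controls (SD, n = 3 each), so its rank rested on libraries that differed widely. Ccl6 at 67.2, Cxcl14 at 47.7, the T cell product Ccl5 at 33.3 and the B cell attractant Cxcl13 at 33.1 FPKM came next.

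**Figure D1:**
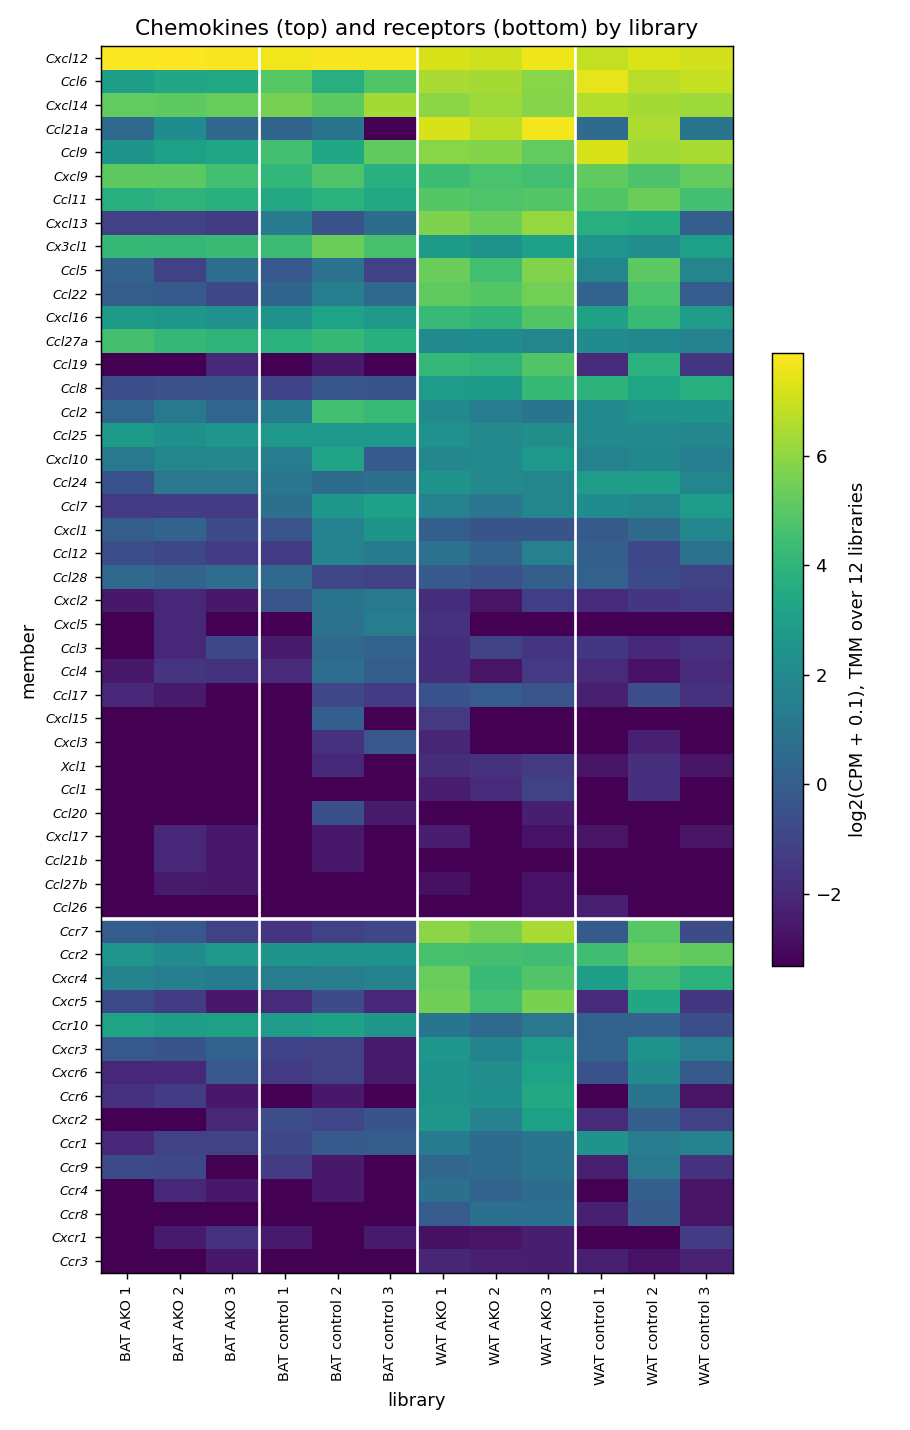
Level of 52 of the 53 members in each of the 12 libraries, as log2(CPM + 0.1), with ligands above and receptors below the horizontal white line, and vertical lines between the groups. Ccl21a, Ccl19, Ccl22, Ccr7 and Cxcr5 are bright in all 3 WAT AKO libraries and WAT control 2, and darker in WAT controls 1 and 3 and in every BAT library.

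In BAT, no member passed edgeR's quasi-likelihood test in the comparison of AKO with control at an adjusted p under 0.05, where 11 of 14265 tested genes did (0.0771%). Of the 53 members 23 had enough counts to be tested, and 13 of the 23 log2 fold changes were negative, with a median of −0.08 against 0.01 for all genes tested. At an unadjusted p under 0.05, 7 members were lower in AKO and 1 was higher, where 6.62% of all tested genes were lower and 7.0% higher. The 3 AKO libraries lay below all 3 controls for 6 members and above them for 1, Cxcl12, against 9.81% and 10.2% of all tested genes. In whole tissue, fewer cells of a type and less RNA per cell cannot be told apart.

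The most negative log2 fold changes were those of CC chemokines that attract monocytes. Ccl7, which binds Ccr2, measured 0.274, 0.294 and 0.288 CPM in BAT AKO libraries and 1.64, 6.06 and 8.45 CPM in BAT controls. All AKO libraries were alike and low, and the controls were higher but spread, with control 1 nearest to the AKO level. The log2 fold change was −4.18 (SE 0.681, unadjusted p = 0.000416, adjusted p = 0.194). With 4, 4 and 4 counts in AKO, Ccl7 passed the filter through the controls, where it is high. A lower value in AKO was thereby favoured, and the p-value supports nothing further. Ccl2, the main monocyte attractant of obese fat, measured 1.17, 2.21 and 1.15 CPM in AKO against 2.31, 22.3 and 19.02 CPM in controls. Controls 2 and 3 stood far above every other BAT library, while control 1 lay just above AKO 2. Its log2 fold change was −3.25 (SE 0.795, adjusted p = 0.255). Ccl12, a mouse ligand of Ccr2 with too few counts for the test in BAT, had 18 counts in AKO and 81 in controls, a ratio of 0.215 (95% counting interval 0.121 to 0.361), and again control 1 was at the AKO level.

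Their receptor did not show the same. Ccr2 measured 5.62, 4.12 and 6.63 CPM in BAT AKO and 5.44, 5.14 and 5.25 CPM in BAT controls, with overlapping groups and a log2 fold change of 0.07 (95% interval −0.40 to 0.54).

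Ccl6 and Ccl9 are CC chemokines of rodents made by macrophages and other myeloid cells, and both bind Ccr1. They lie side by side on the minus strand of chromosome 11, Ccl9 at 83572919 to 83578636 and Ccl6 at 83587882 to 83593087 (mm10). In BAT, Ccl6 measured 7.68, 10.2 and 11.1 CPM in AKO libraries and 30.9, 13.0 and 28.5 CPM in controls. The groups did not overlap, and here control 2, not control 1, was the lowest control. Its log2 fold change was −1.30 (SE 0.326, adjusted p = 0.258). Ccl9 measured 5.48, 8.09 and 9.80 CPM in AKO against 23.3, 10.1 and 35.0 CPM in controls, with control 2 just above AKO 3. The log2 fold change was −1.53 (SE 0.44, adjusted p = 0.278). Ccr1 was too low for the BAT test, with 12 counts in AKO and 29 in controls, a ratio of 0.40 (counting interval 0.186 to 0.808).

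Macrophage markers moved with these values: the 10 of them summed to 229 to 289 CPM in BAT AKO and 306 to 417 CPM in BAT controls, and 9 of the 10 had negative log2 fold changes (median −0.50). The part of this in the chemokine values was not tested.

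The CXC chemokines that attract neutrophils through Cxcr2 were near the limit of detection in BAT, apart from BAT controls 2 and 3. Cxcl1 measured 0.891, 1.10 and 0.504 CPM in AKO and 0.671, 3.03 and 5.46 CPM in controls, where control 1 lay among the AKO values. Its log2 fold change was −1.85 (SE 0.706, adjusted p = 0.342). Cxcl2 had 1, 2 and 1 counts in AKO libraries and 9, 27 and 30 in controls, which did not overlap, and a ratio of 0.0586 over the groups (counting interval 0.0155 to 0.157). Cxcl5 had 0, 2 and 0 counts in AKO against 0, 25 and 34 in controls, a ratio of 0.0328 (0.00388 to 0.124), with control 1 at 0. Cxcl3 had no count in AKO and 0, 3 and 10 in controls, most of them in control 3, at least 4.48-fold lower over the groups when 3 counts are allowed for AKO; without control 3 the controls hold no more than that allowance. The same library pattern held for the inflammatory CC chemokines Ccl3 and Ccl4: Ccl3 had 0, 2 and 6 counts in AKO and 1, 19 and 14 in controls, and Ccl4 had 1, 3 and 3 in AKO and 2, 22 and 12 in controls. Counting intervals cover counting error only and not the spread between libraries.

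Neutrophil markers summed to 1.18 to 1.66 CPM in BAT AKO and 5.0 to 6.11 CPM in BAT controls, without overlap. The defining genes Ly6g and Ngp were at 0 in every BAT library. The part of these cells in the result was not tested.

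**Figure D2:**
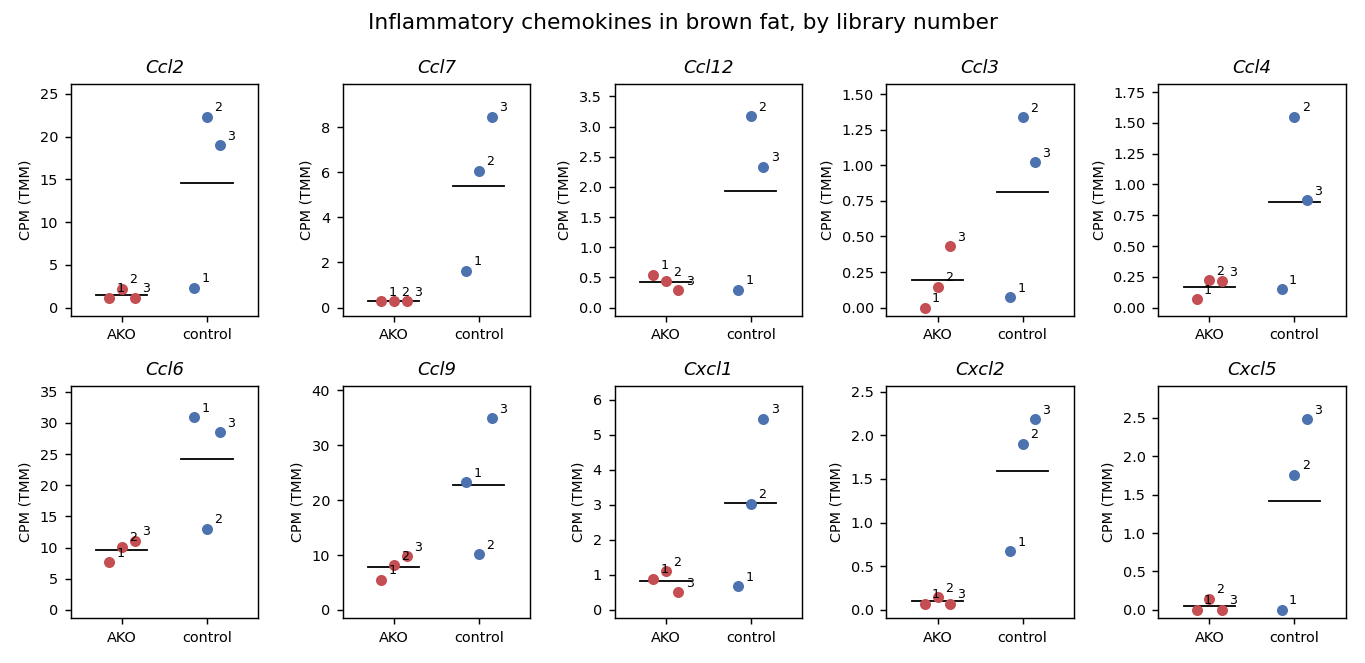
CPM of 10 inflammatory chemokines in the 3 AKO and 3 control libraries of brown fat, with the library number beside each point and the group mean as a line. Controls 2 and 3 carry the high values of Ccl2, Ccl7, Ccl12, Ccl3, Ccl4, Cxcl1, Cxcl2 and Cxcl5, whereas controls 1 and 3 do so for Ccl6 and Ccl9.

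The promoters of Cxcl1, Cxcl2, Cxcl3 and Ccl9 are shown as examples of genes with low values in BAT AKO that hold a match to the NF-kB consensus, the element through which inflammatory signals are known to induce chemokines. They were picked for that match. Ccl20, Cxcl10 and Ccr3 hold matches too. Of these, Cxcl10 overlapped between genotypes in BAT (log2 fold change −0.43, adjusted p = 0.822 by edgeR). Ccr3 had 1 count in BAT AKO and 0 in BAT controls. Ccl3, Ccl6, Ccl12, Ccl22 and Cx3cl1, also low in BAT AKO, hold none in this window, and Ccl2 and Ccl7 have no promoter entry. Each window runs from 250 bases before to 50 after the RefSeq start on GRCm38.p6, 5′ to 3′, with the match in capitals. They are Cxcl1 at chr5:90890995-90891294 (plus strand), Cxcl2 at chr5:90903649-90903948 (plus), Cxcl3 at chr5:90785851-90786150 (plus) and Ccl9 at chr11:83578587-83578886 (minus).
Cxcl1: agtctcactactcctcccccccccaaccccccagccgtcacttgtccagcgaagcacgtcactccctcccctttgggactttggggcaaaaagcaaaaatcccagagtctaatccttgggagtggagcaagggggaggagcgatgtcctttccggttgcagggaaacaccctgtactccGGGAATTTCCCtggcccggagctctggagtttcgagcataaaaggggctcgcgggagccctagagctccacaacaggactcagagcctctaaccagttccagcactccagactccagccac
Cxcl2: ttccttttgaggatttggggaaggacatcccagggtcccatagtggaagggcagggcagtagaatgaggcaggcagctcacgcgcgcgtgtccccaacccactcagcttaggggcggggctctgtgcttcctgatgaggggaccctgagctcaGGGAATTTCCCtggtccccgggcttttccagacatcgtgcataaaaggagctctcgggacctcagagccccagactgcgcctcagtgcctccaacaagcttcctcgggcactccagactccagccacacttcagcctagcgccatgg
Cxcl3: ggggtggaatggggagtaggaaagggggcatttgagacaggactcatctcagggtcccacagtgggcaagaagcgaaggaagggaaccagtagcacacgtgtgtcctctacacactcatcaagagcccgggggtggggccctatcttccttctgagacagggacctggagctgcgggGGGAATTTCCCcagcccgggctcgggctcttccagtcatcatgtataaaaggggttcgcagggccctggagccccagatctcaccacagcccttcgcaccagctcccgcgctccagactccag
Ccl9: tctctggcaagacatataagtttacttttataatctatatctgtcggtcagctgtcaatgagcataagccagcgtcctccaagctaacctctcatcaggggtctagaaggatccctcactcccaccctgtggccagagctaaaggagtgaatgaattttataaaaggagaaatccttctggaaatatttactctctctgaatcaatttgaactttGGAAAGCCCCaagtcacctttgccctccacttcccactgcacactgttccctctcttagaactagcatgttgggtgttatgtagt

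The 3 CXC promoters carry the same run GGGAATTTCCC, which holds overlapping matches on both strands and begins 71, 97 and 73 bases before the start of Cxcl1, Cxcl2 and Cxcl3. The Ccl9 match is on the strand opposite to the gene and begins 35 bases before its start. Of the 53 members 39 had a promoter in the RefSeq table, and 7 of these (17.9%) held an NF-kB match on either strand, against 1175 of 27025 promoters of the same length (4.35%). The other 4 elements searched were C/EBP (TTGC and AA parted by any 2 bases, in 10.3% of member promoters and 10.8% of all), AP-1 (TGANTCA, 15.4% and 7.93%), the TATA box (TATAAA, 23.1% and 14.2%) and the interferon-stimulated response element core (GAAA and again GAAA parted by any 2 bases, 7.69% and 3.49%), each on either strand. A match describes the letters in the window and not a bound site.

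Other genes of the NF-kB response were measured alongside. Of 22 such genes 20 were tested in BAT, 15 had negative log2 fold changes, 5 had an unadjusted p under 0.05 with lower values in AKO (6.62% of all tested genes did), and none passed the adjusted threshold. Icam1, the endothelial and leukocyte adhesion molecule, measured 12.2, 16.8 and 10.01 CPM in BAT AKO and 29.6, 43.5 and 31.3 CPM in controls (log2 fold change −1.40, SE 0.233, adjusted p = 0.194). Socs3, the cytokine feedback inhibitor, measured 3.91, 5.37 and 3.53 CPM in AKO against 9.69, 12.1 and 15.7 CPM in controls (−1.52, adjusted p = 0.194). Neither gene overlapped between genotypes, and control 1 did not stand apart from the other controls in Icam1. Bcl3, an atypical IkB protein, also separated, with a log2 fold change of −0.87 (adjusted p = 0.214).

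Of the chemokines outside the inflammatory group, Ccl22, a dendritic cell and macrophage product that binds Ccr4, measured 0.891, 0.809 and 0.432 CPM in BAT AKO and 1.118, 2.68 and 1.39 CPM in controls. The groups were separate at a low level (log2 fold change −1.25, SE 0.445, adjusted p = 0.328). Cx3cl1, the membrane-bound chemokine of endothelium and neurons, measured 17.9, 17.4 and 20.03 CPM in AKO against 20.4, 40.9 and 24.9 CPM in controls, with AKO 3 just below control 1 (log2 −0.62, SE 0.244, adjusted p = 0.348). Cxcl9, which attracts Cxcr3-bearing T cells, went the other way at 34.8, 33.8 and 23.4 CPM in AKO and 16.8, 27.5 and 13.7 CPM in controls. AKO 3 lay below control 2, so the groups overlapped (log2 0.69, SE 0.273, adjusted p = 0.348). Its receptor Cxcr3 was too low for the test in BAT, with 34 counts in AKO and 11 in controls, a ratio of 2.99 (counting interval 1.48 to 6.53). Cxcl10, the second interferon-induced ligand, measured 2.19, 3.45 and 3.53 CPM in AKO and 2.53, 9.23 and 0.802 CPM in controls, and spread most among controls.

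DESeq2 called 4 members in BAT, Ccl2, Ccl6, Ccl7 and Ccl9, all lower in AKO, where it called 1.01% of tested genes lower and 0.939% higher. Without BAT control 1 edgeR called Ccl7, without BAT control 2 it called Ccl6, and without the library of each group that held the most muscle counts (BAT AKO 2 and BAT control 1) it called Ccl2. The limit given above for the entry of Ccl7 holds for its calls here.

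In WAT the test of AKO against control likewise called no member, and 3 of 15915 tested genes (0.0189%). Of 38 members tested 25 had positive log2 fold changes, with a median of 0.69 against 0.0049 for all genes. Among these, 11 of 14 receptors and 14 of 24 ligands were positive, and whether the classes differ was not tested. Ccr4, Ccr6, Ccr8, Ccr9, Cxcr2, Cxcr5, Ccl17 and Ccl19 passed the count filter through WAT AKO, where they are high. Their entry favoured a positive value, so the counts of positive members and their median are descriptions only. At an unadjusted p under 0.05, 6 members were higher and 7 lower, where 10.6% of all tested genes were higher and 12% lower. All AKO libraries lay above all controls for 13 members and below them for 7, against 15.2% and 15.4% of all genes.

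The CXC receptor Cxcr2, known as the neutrophil receptor for Cxcl1 and Cxcl2 and also found on other leukocytes, had the smallest p. It lies on the plus strand of chromosome 1 at 74153989 to 74161246. It measured 6.01, 3.04 and 8.07 CPM in WAT AKO and 0.1504, 0.956 and 0.353 CPM in WAT controls. The lowest AKO library was above the highest control, WAT control 2. The log2 fold change was 3.50 (SE 0.671, unadjusted p = 0.00154, adjusted p = 0.0915). With 3, 20 and 7 counts in controls, Cxcr2 passed the filter through WAT AKO, where it is high, so this p-value supports nothing further. Its ligand Cxcl1 measured 0.951, 0.647 and 0.642 CPM in AKO against 0.802, 1.39 and 3.69 CPM in controls, with overlap. Neutrophil markers summed to 8.08, 12 and 14 CPM in WAT AKO and to 11.1, 9.56 and 11.7 CPM in controls, and overlapped. Their single genes were not alike: Ngp stood at 0, 1.99 and 1.33 CPM in WAT AKO and at 0, 0.0478 and 0 CPM in controls, and S100a8 at 1.51, 3.09 and 1.56 CPM in WAT AKO and at 3.16, 4.49 and 5.25 CPM in controls. The part of neutrophils in the Cxcr2 values was not tested.

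Cxcl13, which draws B cells into follicles, measured 52.5, 41.8 and 69.2 CPM in WAT AKO and 12.9, 12.2 and 0.959 CPM in controls. All AKO libraries were above all controls, and control 3 was the lowest (log2 fold change 2.63, SE 0.794, adjusted p = 0.144). Its receptor Cxcr5, carried by B cells and follicular helper T cells, measured 43.4, 22.6 and 49.7 CPM in AKO and 0.1504, 10.1 and 0.252 CPM in controls. The groups were separate, yet control 2 stood far above the other controls (log2 3.43, SE 1.33, adjusted p = 0.20). Ccr6, a receptor of B cells and some T cells, measured 5.40, 4.78 and 10.6 CPM in AKO and 0, 1.86 and 0.0505 CPM in controls, with the same order among controls (log2 3.39, SE 1.26, adjusted p = 0.188). Cxcr5 and Ccr6 passed the filter through WAT AKO, where they are high, so their tests support nothing further.

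The lymph node pair Ccl21a and Ccl19, and their receptor Ccr7 on naive T cells and mature dendritic cells, showed the same control 2. Ccl21a measured 149, 105 and 205 CPM in WAT AKO and 1.40, 91.3 and 1.97 CPM in controls. Ccl19 measured 17.5, 15.4 and 28.9 CPM in AKO against 0.1504, 14.1 and 0.252 CPM in controls. Ccr7 measured 61.0, 47.8 and 85.4 CPM in AKO and 0.802, 31.4 and 0.505 CPM in controls. For these 3 genes control 2 sat below the AKO range and the other controls near 0, and the log2 fold changes of 2.26, 2.07 and 2.55 carried standard errors of 1.46, 1.40 and 1.38 (adjusted p = 0.383, 0.404 and 0.312). Ccl19 passed the filter through WAT AKO, where it is high. Ccl22 at 36.0, 30.1 and 45.5 CPM in AKO and 1.10, 25.6 and 0.858 CPM in controls, and Ccl5 at 40.4, 22.8 and 55.01 CPM in AKO and 3.46, 33.4 and 3.38 CPM in controls, had the same pattern, and for Ccl5 control 2 lay above AKO 2. Ccr4, the receptor of Ccl22, had 93 counts in AKO and 21 in controls. Reads of Ccl21a and Ccl19 are uncertain, since Ccl21a is 99.5% identical to Ccl21b over 402 bases and stretches of Ccl19 are 98.87% or more identical to 4 other annotated genes.

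**Figure D3:**
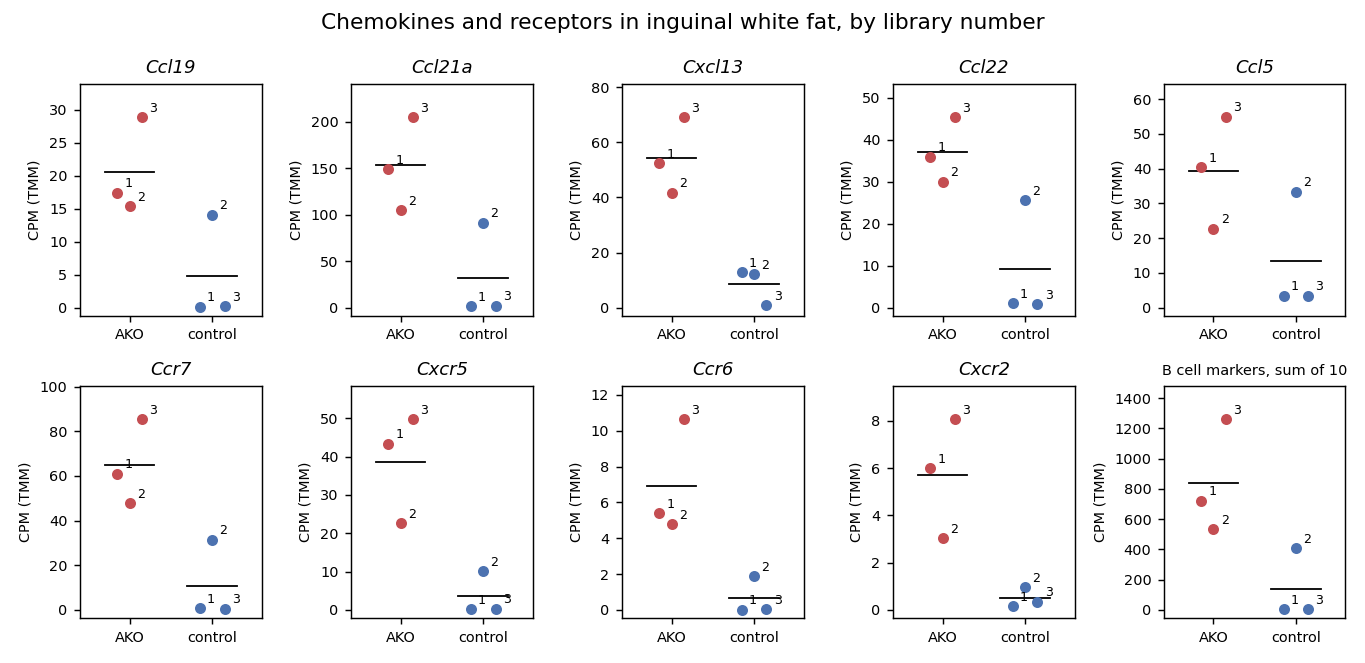
CPM of 9 members and the summed CPM of 10 B lymphocyte markers in the 3 AKO and 3 control libraries of inguinal white fat, with the library number beside each point and the group mean as a line. Control 2 lies near the AKO libraries for Ccl19, Ccl21a, Ccl22, Ccl5 and Ccr7, and controls 1 and 3 lie near 0, as for the B cell markers, whereas for Cxcr2 all 3 controls are below every AKO library.

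Lymphocyte markers and most lymph node markers moved with these values. B lymphocyte markers, given above, were all detected in each WAT group, and all 10 had positive log2 fold changes (median 2.63). The 10 T and NK lymphocyte markers summed to 213, 220 and 391 CPM in WAT AKO and to 9.33, 218 and 18.8 CPM in controls. The 7 measured markers of lymph node stroma and high endothelium summed to 95.9, 68.8 and 114 CPM in AKO and to 17.8, 46.1 and 13.2 CPM in controls. Of these, 6 had positive log2 fold changes. Pdpn went the other way, at 8.64, 6.82 and 8.94 CPM in AKO and 16.85, 12.9 and 12.37 CPM in controls, without overlap. Cr2, at 45.55, 29.76 and 58.4 CPM in AKO, is also in the B lymphocyte list, so the 2 sums share it. Glycam1, a defining gene of high endothelial venules, stood at 32.4, 26.6 and 35.0 CPM in AKO and at 0, 10.9 and 0 CPM in controls. The inguinal fat pad of the mouse holds a lymph node, and the part of lymph node tissue in these values was not tested.

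Leaving out WAT control 2 changed the count most. Without it edgeR called 15 members, 13 higher and 2 lower in AKO, in a fit that called 6.51% of its 16376 genes higher and 3.56% lower. The 13 were Ccl5, Ccl19, Ccl21a, Ccl22, Cxcl16, Ccr4, Ccr6, Ccr7, Ccr8, Ccr9, Cxcr2, Cxcr5 and Cxcr6, and the lower ones included Cxcl9. Without that library the log2 fold change of Ccr7 was 6.57 (SE 0.37, adjusted p = 0.00603), that of Cxcr5 7.49 (SE 0.529, adjusted p = 0.00608) and that of Cxcr2 4.42 (SE 0.609, adjusted p = 0.0142). WAT control 2 is the control with high lymphoid values, so leaving it out favoured such calls. Controls 1 and 3 held 16 and 10 counts of Ccr7, 3 and 5 of Cxcr5, and 3 and 7 of Cxcr2. Cxcr5, Cxcr2, Ccl19, Ccr4, Ccr6, Ccr8 and Ccr9 passed that filter through WAT AKO, where they are high. Their calls and the p-values given here support nothing further. DESeq2 on all libraries called 6, 2 higher (Cxcr2 and Cxcl13) and 4 lower (Ccl6, Ccl9 and Cxcl9 among them), where it called 4.4% of genes higher and 6.15% lower.

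Of 9 inflammatory CC chemokines tested in WAT 7 were negative, 3 of them at an unadjusted p under 0.05, and Ccl5 and Ccl12 were positive (1.53 and 0.85 on the log2 scale). Ccl6 measured 87.3, 83.9 and 58.7 CPM in WAT AKO against 177, 106 and 121 CPM in WAT controls, without overlap (log2 −0.83, SE 0.244, adjusted p = 0.138). Ccl9 measured 59.0, 56.1 and 36.6 CPM in AKO and 150, 80.0 and 85.0 CPM in controls, with control 1 the highest and no overlap (log2 −1.07, SE 0.303, adjusted p = 0.133). Ccr1, which both bind, measured 2.38, 1.44 and 1.92 CPM in AKO against 5.42, 2.48 and 3.08 CPM in controls, separate by a narrow margin (log2 −0.95, SE 0.36, adjusted p = 0.195). The 10 macrophage markers summed to 1040 to 1190 CPM in AKO and 1220 to 1670 CPM in controls, and 8 of 10 had negative log2 fold changes (median −0.66). The share of macrophage number in the chemokine values was not tested.

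Cxcl9 measured 20.9, 25.2 and 22.2 CPM in WAT AKO and 35.5, 26.6 and 36.6 CPM in controls, with AKO 2 close to control 2 (log2 −0.55, SE 0.157, adjusted p = 0.133). Cxcr3 measured 5.83, 3.19 and 7.24 CPM in AKO against 1.05, 5.11 and 2.52 CPM in controls and overlapped. Cxcl14 measured 61.3, 76.5 and 58.3 CPM in AKO and 97.0, 83.6 and 76.3 CPM in controls, where AKO 2 and control 3 were nearly equal. Scaled over WAT libraries alone, as in the test, AKO 2 lay just below control 3, and the log2 fold change was −0.41 (SE 0.149, adjusted p = 0.184). Ccr10, the receptor of Ccl27 and Ccl28 on skin-homing T cells and plasma cells, measured 1.95, 1.34 and 2.06 CPM in AKO against 1.00, 1.05 and 0.555 CPM in controls, without overlap at a low level (log2 1.01, SE 0.331, adjusted p = 0.159). Its ligands Ccl27a and Ccl28 overlapped between genotypes, with log2 fold changes of 0.07 and 0.33.

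Among 18 genes of the chemokine system that are no members, none passed the test in either tissue. Ackr3, which scavenges Cxcl12, measured 31.2, 20.8 and 22.8 CPM in WAT AKO and 49.7, 47.7 and 38.2 CPM in WAT controls (log2 −0.88, SE 0.185, adjusted p = 0.0983). In BAT it lay on the other side, 79.0, 68.7 and 58.8 CPM in AKO and 52.3, 58.7 and 42.8 CPM in controls, with AKO 3 and control 2 almost equal (log2 0.45, SE 0.147, adjusted p = 0.316). Cxcl12 itself overlapped in WAT (log2 0.20) and was 0.13 in BAT (95% interval −0.06 to 0.33). Pf4, a platelet and macrophage chemokine, gave −0.58 (log2) in WAT (SE 0.117, adjusted p = 0.0945). Grk2, a kinase that desensitises chemokine receptors, was at −0.28 in BAT (adjusted p = 0.328) and 0.66 in WAT (adjusted p = 0.207), and the adaptor Arrb2 had −0.26 in BAT (adjusted p = 0.346). Of the NF-kB response genes, 16 of 20 tested were positive in WAT, and at an unadjusted p under 0.05 13 were higher and 1 lower, where 10.6% of all tested genes were higher and 12% lower. The lower one was Saa3, an acute-phase protein of macrophages and adipocytes, named after its values were seen, with a log2 fold change of −2.21 and an adjusted p of 0.132. Vcam1, the adhesion molecule of activated endothelium and follicular stroma, measured 60.7, 63.9 and 70.6 CPM in WAT AKO and 25.1, 27.4 and 32.6 CPM in controls, well apart and with control 2 at the level of the other controls (log2 1.18, SE 0.128, adjusted p = 0.0634). The NF-kB inhibitors Tnfaip3 and Nfkbia had log2 fold changes of 1.20 (adjusted p = 0.0781) and 0.82 (adjusted p = 0.109).

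**Figure D4:**
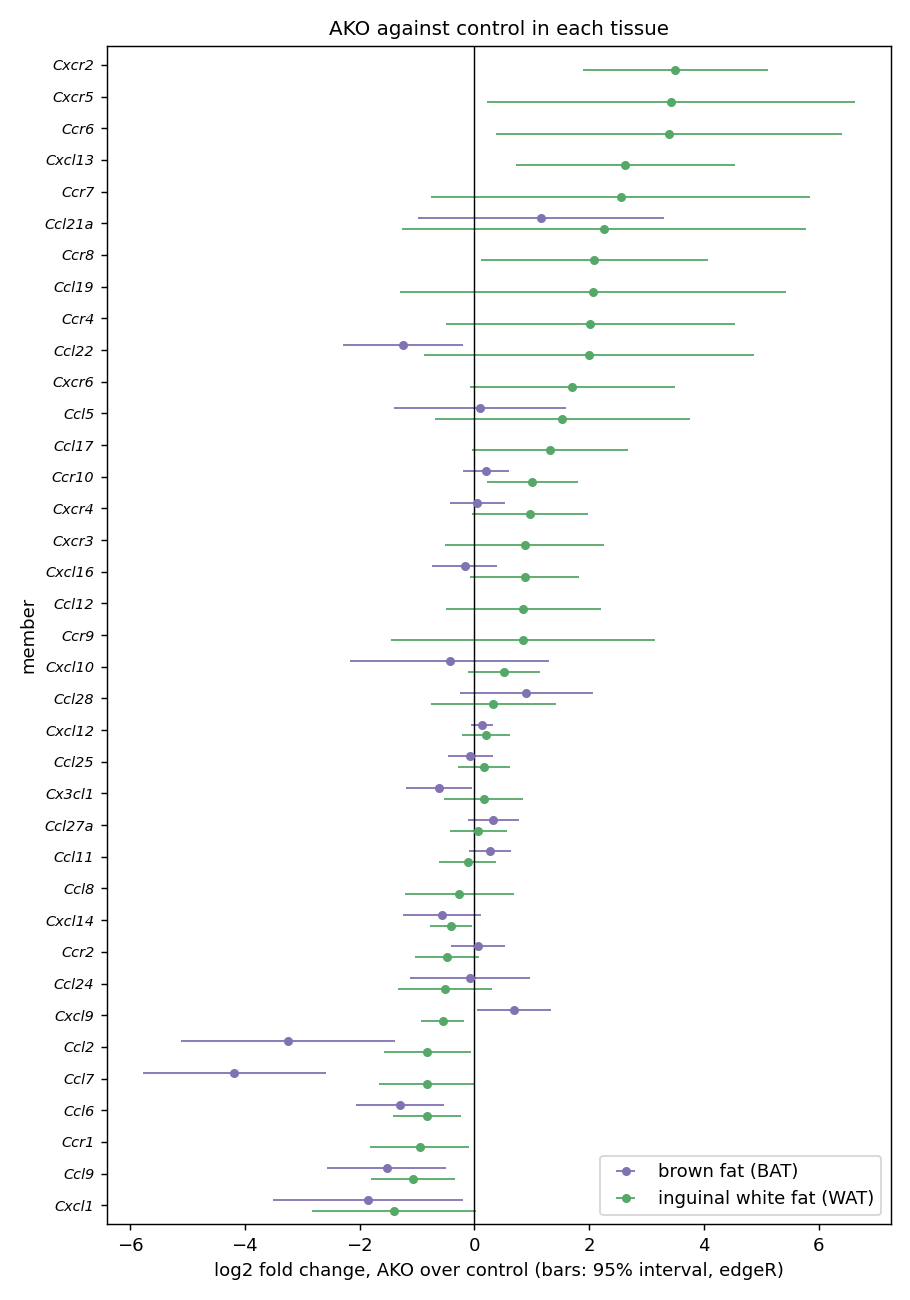
Log2 fold change of AKO over control with its 95% interval from edgeR for 22 members tested in brown fat and 37 tested in white fat, ordered by the white fat value. Cxcr2, Cxcr5 and Ccr6 have the highest values in white fat, with Cxcr2 the best determined of them, and Ccl7 and Ccl2 the lowest in brown fat, and no member passed an adjusted p under 0.05. Cxcr2, Cxcr5 and Ccr6 passed the white fat filter through AKO, and Ccl7 the brown fat filter through controls, where they are high.

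The AKO effects were then set side by side. Of 23 members tested in both tissues, 8 were negative in both, 7 positive in both, 5 negative in BAT and positive in WAT, and 3 positive in BAT and negative in WAT. All AKO libraries lay below all controls in both tissues for 3 members, Ccl6, Ccl7 and Ccl9, where 2.19% of 13851 genes tested in both did so. Ccl7 passed the BAT filter through the controls, where it is high, which favoured its place among the 3. No member lay above the controls in both. Ccl7 measured 3.03, 2.04 and 3.48 CPM in WAT AKO and 4.26, 3.49 and 7.17 CPM in WAT controls, with AKO 3 and control 2 nearly equal.

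Whether the effect differed between tissues was tested as the AKO effect in BAT minus that in WAT over all 12 libraries. edgeR called 1 of 38 tested members and 45 of 16391 genes (0.275%). At an unadjusted p under 0.05, 7 members were lower and 1 higher, where 10.1% of genes were lower and 8.34% higher. The member called was Cxcr2, with a difference of −6.83 (SE 1.18, adjusted p = 0.0482). Cxcr2 did not pass the count filter in BAT alone and entered the 12-library fit through its counts in WAT AKO, the group where it is high, so the call is given as a description and supports nothing further. In BAT, Cxcr2 had 2 counts in AKO, both in library 3, and 22 in controls, a ratio of 0.0878 (counting interval 0.01 to 0.357), and in WAT it had 376 counts in AKO and 30 in controls. BAT AKO stood at 0, 0 and 0.144 CPM and BAT controls at 0.522, 0.423 and 0.656 CPM, so the genotypes were separate in each tissue and in opposite directions, but the BAT side rested on few counts. The call held without BAT control 2, WAT AKO 2 or WAT control 2. It was lost without any 1 of the other 9 libraries, with edgeR's adjusted p from 0.0626 (without WAT control 1) to 0.139 (without WAT AKO 3), and a log2 difference of −6.28 or lower each time. With the replicate number as a block its adjusted p was 0.0838, and with a block of genotype and number together, added after seeing the data, it was 0.0224.

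Ccl7 followed with a difference of −3.41 (SE 0.77, adjusted p = 0.0845), Cxcl13 with −4.78 (SE 1.18, adjusted p = 0.0991) and Cxcl9 with 1.19 (SE 0.344, adjusted p = 0.126). Cxcl13 in BAT was low in every library, at 0.343, 0.368 and 0.288 CPM in AKO and 2.38, 0.634 and 1.46 CPM in controls. DESeq2 called these 3 and Cxcr2, where it called 2.14% of genes lower and 3.75% higher. Without WAT control 2 edgeR called 9 members, all lower, in a fit that called 4.06% of 16790 genes lower and 1.44% higher. That library is the WAT control with high lymphoid values, so leaving it out favoured such calls. Of the NF-kB response genes 17 of 20 were negative in this difference and Icam1 was called (−2.23, SE 0.322, adjusted p = 0.0262).

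Brown and white fat themselves were compared within each genotype. In AKO libraries 34 of 38 tested members passed the test, 6 higher and 28 lower in BAT, where 28.8% of 15671 tested genes were higher and 30.5% lower. In controls 18 of 28 tested members passed, 5 higher and 13 lower, against 24.4% and 25.7% of 15031 genes. The genes tested differ between these counts: the receptors Ccr4, Ccr6, Ccr7, Ccr8, Ccr9, Cxcr2 and Cxcr5 and the ligands Ccl17, Ccl19 and Ccl28 were tested in AKO only. The 7 receptors, Ccl17 and Ccl19 passed that filter through WAT AKO, where they are high, so that they had to be lower in BAT. In AKO, Ccl7, Ccl8, Ccl12, Ccl22, Cxcl13, Ccr1, Cxcr3 and Cxcr6 entered likewise, and the 2 counts of calls are not compared. Of the 7 receptors tested in both genotypes, 6 were called lower in BAT in controls and Ccr10 higher. Among those 6, Ccr1, Cxcr3 and Cxcr6 had too few counts for the test within BAT. They entered the control fit through WAT controls, where they are high, so their calls support nothing further. Ccr8 had no count in BAT and is at least 26.7-fold lower there than in WAT of AKO when 3 counts are allowed over the BAT group.

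The members higher in BAT were few. Ccl27a, a skin and fat chemokine of Ccr10, measured 23.5, 17.4 and 15.6 CPM in BAT AKO and 3.85, 4.33 and 3.44 CPM in WAT AKO (log2 2.35, SE 0.205, adjusted p = 6.16e-05). In controls it measured 14.0, 18.3 and 13.3 CPM in BAT and 4.16, 3.68 and 3.08 CPM in WAT (2.05, SE 0.206, adjusted p = 0.000344). BAT lay above WAT in every library, and reads of Ccl27a can be shared with Ccl27b, 99.29% identical over 425 bases. Ccr10 itself was likewise higher, at 8.78, 7.79 and 8.07 CPM in BAT AKO against 1.95, 1.34 and 2.06 CPM in WAT AKO (2.27, SE 0.204, adjusted p = 7.36e-05), and in controls 7.16, 8.52 and 6.05 CPM in BAT against 1.00, 1.05 and 0.555 CPM in WAT (3.04, SE 0.317, adjusted p = 0.000401). Ccl28, its other ligand, was called in AKO only (0.81, SE 0.286, adjusted p = 0.0417) and was not tested in controls.

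Cx3cl1 was higher in BAT with log2 fold changes of 1.502 in AKO (SE 0.181, adjusted p = 0.000305) and 2.25 in controls (SE 0.333, adjusted p = 0.00172). Cxcl12 measured 229, 237 and 222 CPM in BAT AKO and 146, 134 and 197 CPM in WAT AKO, all BAT libraries above all WAT libraries (0.60, SE 0.146, adjusted p = 0.00907), and in controls 201, 221 and 214 CPM in BAT against 117, 152 and 141 CPM in WAT (0.63, SE 0.129, adjusted p = 0.00667). Ccl25, the gut-homing ligand of Ccr9, was higher in BAT of controls (0.66, SE 0.178, adjusted p = 0.0203). Endothelial markers moved with these: 7 of 8 had positive log2 fold changes in each genotype, 6 called in AKO and 3 in controls, and their part in the values of Cx3cl1 and Cxcl12 was not tested.

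Called lower in BAT in both genotypes were 12 of the 28 members tested in both, a count without the matching share of all genes. Among the 12, Ccl8, Ccr1, Cxcr3 and Cxcr6 had too few counts for the test within BAT and entered through WAT. Ccl8, in mice a ligand of Ccr8, measured 0.548, 0.588 and 0.648 CPM in BAT AKO and 7.26, 6.87 and 18.1 CPM in WAT AKO (−4.08, SE 0.458, adjusted p = 0.000215). In controls it measured 0.373, 0.705 and 0.656 CPM in BAT against 15.1, 9.94 and 12.8 CPM in WAT (−4.43, SE 0.309, adjusted p = 8.57e-05). It was low in every BAT library and did not vary with genotype beyond its spread (WAT log2 −0.26). Ccl8 did not pass the filter in BAT alone and entered both tissue comparisons through WAT, so these p-values support nothing further. Ccr2, Ccl6, Cxcr4 and Ccl11 in controls had log2 fold changes of −2.62, −2.48, −2.41 and −1.39, with adjusted p of 0.000258, 0.00146, 0.00267 and 0.00324. The same genes in AKO gave −2.04, −2.92, −3.29 and −0.96, all called. Macrophage markers moved with these: all 10 were lower in BAT in each genotype, 10 called in AKO and 9 in controls, with sums of 229 to 417 CPM in BAT and 1040 to 1670 CPM in WAT. Their part in the result was not tested.

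Lymphoid members showed wide gaps between the tissues in AKO. Cxcl13 measured 0.343, 0.368 and 0.288 CPM in BAT AKO against 52.5, 41.8 and 69.2 CPM in WAT AKO (−7.25, SE 0.257, adjusted p = 4.17e-06). Ccr7 had −6.52 (SE 0.335, adjusted p = 7.8e-06), Cxcr5 −6.97 (SE 0.511, adjusted p = 2.92e-05) and Ccl22 −5.62 (SE 0.281, adjusted p = 7.39e-06). Ccl19 had 2 counts in BAT AKO and 1344 in WAT AKO, a ratio of 0.00162 (counting interval 0.000196 to 0.00586). Cxcl13, Ccr7, Cxcr5, Ccl22 and Ccl19 entered that fit through WAT AKO, where they are high. They had to be lower in BAT, so these p-values support nothing further. In controls Cxcl13 had −2.55 (SE 0.932, adjusted p = 0.0574) and Ccl22 −2.42 (SE 1.31, adjusted p = 0.166), with WAT control 2 high and WAT controls 1 and 3 low for Ccl22, while Ccr7 and Cxcr5 were not tested there. B and T lymphocyte markers were lower in BAT AKO than WAT AKO for 10 of 10 and 10 of 10 genes, all called. Only 4 and 3 of them had enough counts to be tested within BAT, so most entered through WAT AKO as well.

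Cxcl9 was the 1 member called in opposite directions. It was higher in BAT than WAT among AKO libraries (0.50, SE 0.174, adjusted p = 0.0398), at 34.8, 33.8 and 23.4 CPM against 20.9, 25.2 and 22.2 CPM, with BAT AKO 3 inside the WAT range. Among controls it was lower in BAT (−0.77, SE 0.269, adjusted p = 0.0492), at 16.8, 27.5 and 13.7 CPM against 35.5, 26.6 and 36.6 CPM, with BAT control 2 above WAT control 2. Both adjusted values were close to the threshold. Called in both genotypes with the same direction were 16 members of the 28 tested in both, 4 higher and 12 lower in BAT. The share of all genes called in both genotypes was not counted, so these numbers are a description only.

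**Figure D5:**
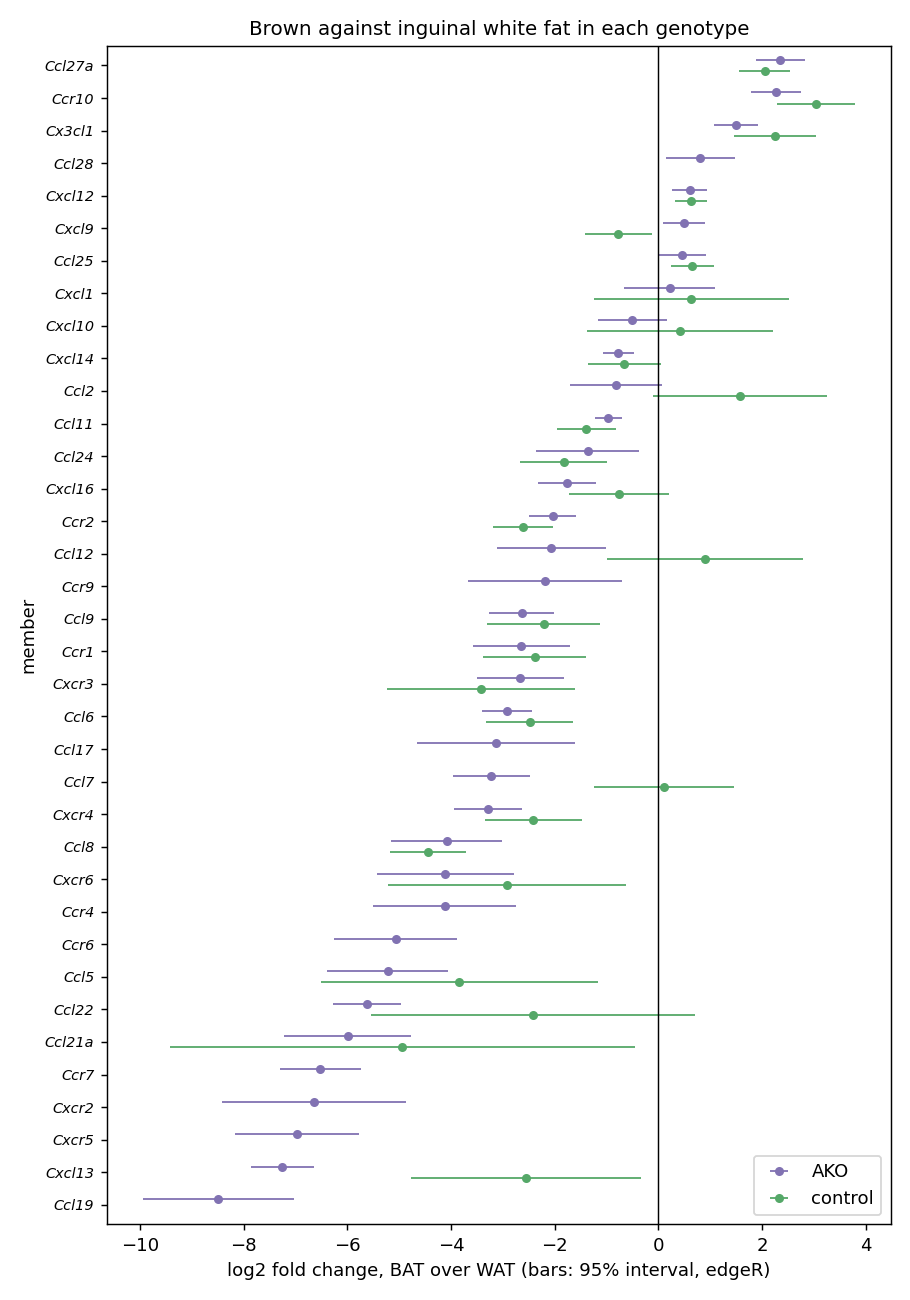
Log2 fold change of BAT over WAT with its 95% interval from edgeR, in AKO and in control libraries, for members tested in each, without Ccr8, which has no count in BAT. Ccl27a, Ccr10, Cx3cl1 and Cxcl12 lie above 0 in both genotypes and Ccl8, Ccr2, Ccl6 and Cxcr4 below 0 in both, while Cxcl9 lies on opposite sides.

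By position, 34 of the 53 members fall into 9 clusters whose neighbours lie less than 300000 bases apart. The chromosome 11 cluster from 82035571 to 82305690 holds Ccl2, Ccl7, Ccl11, Ccl12, Ccl8 and Ccl1, and within it the BAT values were not alike: Ccl2 and Ccl7 had the lowest log2 fold changes of the 23 tested, whereas Ccl11 had a log2 fold change of 0.27 (95% interval −0.09 to 0.63). The second chromosome 11 cluster, from 83525778 to 83664683, holds Ccl5, Ccl9, Ccl6, Ccl3 and Ccl4, where Ccl5 had 0.10 in BAT beside the negative values of Ccl6 and Ccl9. On chromosome 5 the stretch from 90759360 to 90905938 holds Cxcl5, Cxcl3, Cxcl15, Cxcl1 and Cxcl2, all of which had fewer counts in BAT AKO than in BAT controls. Cxcl15 had 0 and 13 counts, all 13 of them in control 2. On chromosome 8 Ccl22, Cx3cl1 and Ccl17 lie between 94745590 and 94812036, and all 3 had positive log2 fold changes in WAT.

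The 15 members never tested had 3 to 96 counts over all 12 libraries, and differences among them were not detectable at this depth unless given above. They are Ccl1, Ccl3, Ccl4, Ccl20, Ccl21b, Ccl26, Ccl27b, Ccr3, Cxcl2, Cxcl3, Cxcl5, Cxcl15, Cxcl17, Cxcr1 and Xcl1. Ccr3, the receptor of Ccl11 and Ccl24, had 1 count in BAT AKO, 0 in BAT controls, 7 in WAT AKO and 5 in WAT controls, while its ligand Ccl11 stood at 13.4 to 15.4 CPM in BAT AKO and 10.7 to 14.1 CPM in BAT controls. Ccl20, the ligand of Ccr6, had no count in BAT AKO and 0, 8 and 1 in BAT controls, so that nearly all came from control 2. The counting's use of strand is not given in the sources used here. Cxcl16 shares 552 exon bases (18.3% of its own) with Zmynd15 on the opposite strand, and Ccr9 shares 1932 (18.8%) with AC165425.1. Reads within these shared stretches cannot be told apart from those of the partner. AC165425.1 itself had 0 counts over all 12 libraries.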

How the data were processed

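Polyadenylated RNA of 12 fat samples was extracted with TRIzol and made into libraries with a VAHTS Universal V6 kit, per the labels' protocols. The authors deposited raw counts per Ensembl gene, for which the submitters' processing notes name Bowtie2 2.2.3, HISAT2 2.1.0, HTSeq 0.6.0 and the mm10 build without their roles. They also deposited FPKM values, which equal the counts over the library total times a constant per gene (largest relative deviation 1.04e-08).

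Members and lists were chosen with earlier results of these data known. Named genes were the members called, the 8 with the smallest p in each AKO comparison, the 4 in the difference, the 5 called members with the smallest p in each direction between tissues, the 5 with the highest FPKM per tissue, and their receptors or ligands. Of other pathway genes the 3 with the smallest p were named. Glycam1, Ccl17, Ccl20, Ccr3, Cxcl15 and other members with few counts were described after their values were seen. The values of 1 member, counted in the totals, are not reported here.

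Counts were tested with the quasi-likelihood test of edgeR 4.0.16 under R 4.3.3 with TMM factors, a minimum count of 10 in enough libraries and 15 in total, and Benjamini-Hochberg adjustment over all genes tested at 0.05. DESeq2 1.42.0 and limma 3.58.1 voom were alternatives, and the fits were tested on simulated data. Gene symbols and positions are of GENCODE on mm10, and promoters are RefSeq's on GRCm38.p6. Counting ratios carry exact 95% intervals, and 3 counts stand for a group at 0.

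Deviations of same-numbered libraries from their group means correlated across tissues in every pair (0.517, 0.238 and 0.45 in controls, 0.567, 0.676 and 0.136 in AKO). Libraries with unlike numbers ran from −0.463 to 0.0737 in controls and from −0.648 to 0.431 in AKO. The AKO ranges overlap, so whether replicate numbers pair the tissues is not settled. The labels do not say that the numbers mark animals.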

Additional observations from a re-analysis of the deposited data

Results flagged for a closer look

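Cxcr2 stood out because its AKO effect differed between the tissues by a direct test, the interaction of genotype and tissue over all 12 libraries in edgeR. The AKO effect in BAT minus that in WAT was −6.83 on the log2 scale (95% interval −9.43 to −4.22, adjusted p = 0.0482). Over 21 settings the adjusted p ranged from 9.95e-05 to 0.195 and the difference from −9.78 to −6.19, and 9 settings called it. BAT held 2 counts in AKO and 22 in controls, so the BAT side of the contrast is limited by depth. Cxcr2 did not pass the count filter in BAT alone and entered this fit through WAT AKO, where it is high, so the call supports nothing further. B lymphocyte markers summed to 6.03 to 6.56 CPM in BAT AKO, 2.19 to 13.8 CPM in BAT controls, 534 to 1260 CPM in WAT AKO and 3.33 to 408 CPM in WAT controls, and their part in the Cxcr2 difference was not tested.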

How the results depend on the processing

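No result reversed under any alternative run. For AKO against control in WAT, members called were 0 as reported, 1 without a filter, 6 by DESeq2, 3 with all 12 libraries in 1 fit, and 0 to 15 leaving out 1 library, with 15 without WAT control 2. In BAT they were 0 as reported, 2 without a filter, 4 by DESeq2, 1 with all 12 libraries in 1 fit, 1 without the library of each group with most muscle counts, and 0 to 1 leaving out 1 library. For the difference they were 1 as reported, 3 without a filter, 4 by DESeq2, 0 by limma voom, 0 with the replicate block, 0 without the muscle-rich libraries, and 0 to 9 leaving out 1 library, with 9 without WAT control 2. A block of genotype and number together, added after seeing the data, left 1. BAT against WAT gave 16 to 24 calls in controls (18 as reported) and 26 to 35 in AKO (34 as reported), and the replicate block gave 20 and 33. Between genotypes, same-numbered libraries correlated at −0.472 to 0.219 in WAT and −0.615 to 0.114 in BAT, so numbers there are names only, and the replicate block called 0 members in each tissue. The cause of these changes was not tested. With 3 libraries a group and few counts for 15 members, small differences were not detectable.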
